A study of Mus musculus with 9 samples.

Results

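The genes followed here, 10 in number, mark regulatory, follicular helper and checkpoint-bearing T cells, and were compared between lymphoma and healthy spleen of the mouse: Foxp3, Ikzf2, Ctla4, Pdcd1, Lag3, Tigit, Icos, Il21, Tnfrsf4 and Il2ra. They were chosen by name, and every probe set whose annotated symbol was exactly that of a listed gene was taken, which gave 15 of the 45037 probe sets tested and covered 9 of the 10 genes. No probe set carried the symbol Tigit alone in the annotation used, so Tigit was not analysed here. The samples were 5 splenic lymphomas of Sca1-MALT1 transgenic mice and 4 spleens of wild-type mice described as healthy controls, all frozen tissue, with 1 Affymetrix array for each. Sca1 is a surface marker of blood stem and progenitor cells, after which the MALT1 transgene is named, and MALT1 is a protease and scaffold that carries antigen receptor signals to NF-kB in B and T cells. The labels give no age, sex or strain and do not state that each sample was its own animal. The p-values therefore describe how these 9 samples vary, which may be technical. The RNA came from whole tissue, in which fewer cells of a type and less RNA per cell cannot be told apart.

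Regulatory T cells restrain immune responses, and the transcription factor Foxp3 defines their identity. Follicular helper T cells enter B-cell follicles, where they supply IL-21 and contact signals that sustain germinal centres. Checkpoint receptors such as CTLA-4, PD-1 and LAG-3 appear on T cells after activation and damp further signalling. In the spleen all these cells sit mainly in the white pulp, next to the B cells from which MALT lymphoma arises.

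None of the 15 probe sets passed limma's test (0 at a Benjamini-Hochberg adjusted p under 0.05 over all 45037 probe sets), where 0.486% of all probe sets did. At an unadjusted p under 0.05 limma had 1 of the 15, that of Ctla4, against 13.9% of all probe sets in either direction and 5.15% that were higher in lymphoma. A test with unequal variances also had 0 calls and 1 at an unadjusted p under 0.05. It called 0 of all probe sets, so its 0 among the members adds nothing. With array weights 1 of the 15 was called, Ctla4 (limma adjusted p 0.0241), and 5 had an unadjusted p under 0.05. Of all probe sets 821 were then called. Of the 9 genes, each represented by its brightest probe set, 7 had a higher and 2 a lower mean in lymphoma, where 50.3% of all genes had a higher one, and the median difference was 0.37 on the log2 scale, against 0.0012 over all 18193 genes. That median rested on single lymphomas: it was 0.11 without lymphoma 5, 0.20 without lymphoma 3 and 0.68 without lymphoma 2, and it turned to -0.18 once Xist was added to the fit. The 9 genes varied far more among the lymphomas than among the wild-type spleens.

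The lymphomas were not alike in their general T-cell genes. In lymphomas 1 and 2 the mean level of Cd3d, Cd3e and Cd3g, the invariant chains of the T-cell receptor complex, was 9.47 and 9.18 on the log2 scale. In lymphomas 3, 4 and 5 it lay between 10.51 and 10.78, and in the wild-type spleens between 10.55 and 10.85. The same 2 lymphomas had the highest means of the erythroid marker list, 3.61 and 3.32 log2 units above the wild-type mean, where the other lymphomas lay between -1.02 and 0.97. Xist, the transcript that silences the second X chromosome in female cells, stood at 7.92 in lymphoma 3 and 7.15 in lymphoma 5. The other lymphomas and the wild-type spleens held 13.69 to 13.91. All wild-type spleens were thus Xist-high, and values without lymphomas 3 and 5 compare Xist-high samples only.

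The sequences just upstream of 4 of the genes are shown because Il21, Pdcd1, Foxp3 and Tnfrsf4 put the 5 lymphomas in exactly the same order of level. Each runs from 250 bases before to 50 bases after a transcription start of RefSeq, build GRCm38.p6, and is written along the gene's strand. Capitals mark the core letters bound by NFAT, the factor that T-cell receptor signals activate, GGAAA or its reverse complement TTTCC.
Il21 (chr3:37232587-37232886, minus strand): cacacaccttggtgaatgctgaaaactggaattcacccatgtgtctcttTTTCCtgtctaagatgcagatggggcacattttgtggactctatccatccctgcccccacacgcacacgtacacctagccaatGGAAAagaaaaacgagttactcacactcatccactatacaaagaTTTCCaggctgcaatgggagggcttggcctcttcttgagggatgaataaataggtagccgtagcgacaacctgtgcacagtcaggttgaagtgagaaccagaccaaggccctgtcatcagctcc
Pdcd1 (chr1:94052504-94052803, minus strand): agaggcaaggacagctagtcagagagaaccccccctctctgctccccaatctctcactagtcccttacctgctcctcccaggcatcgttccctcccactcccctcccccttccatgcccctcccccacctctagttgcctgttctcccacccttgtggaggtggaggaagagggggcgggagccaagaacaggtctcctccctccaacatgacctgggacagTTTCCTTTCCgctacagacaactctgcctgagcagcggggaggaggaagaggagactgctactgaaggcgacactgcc
Foxp3 (chrX:7579426-7579725, plus strand): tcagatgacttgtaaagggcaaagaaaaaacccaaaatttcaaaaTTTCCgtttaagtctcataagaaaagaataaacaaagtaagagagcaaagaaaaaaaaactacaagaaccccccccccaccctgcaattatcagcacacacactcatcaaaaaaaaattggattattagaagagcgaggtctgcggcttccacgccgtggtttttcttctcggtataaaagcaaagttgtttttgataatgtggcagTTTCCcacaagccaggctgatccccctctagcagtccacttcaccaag
Tnfrsf4 (chr4:156013445-156013744, plus strand): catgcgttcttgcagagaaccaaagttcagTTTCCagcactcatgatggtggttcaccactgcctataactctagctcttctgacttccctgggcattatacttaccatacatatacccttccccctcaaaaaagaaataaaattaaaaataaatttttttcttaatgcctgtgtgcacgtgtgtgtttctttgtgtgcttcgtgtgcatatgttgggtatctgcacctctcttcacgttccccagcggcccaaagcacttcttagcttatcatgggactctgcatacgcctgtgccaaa
The NFAT core letters were found in all 4 windows, 3 times in that of Il21 and 2 times each in those of Pdcd1 and Foxp3 and 1 time in that of Tnfrsf4, and 61.3% of the 32851 promoters in the same table hold them. The AP-1 letters TGANTCA, which 7.81% of promoters hold on either strand, and the 10-letter NF-kB motif, which 8.46% hold, were found in 0 of the 4 windows. RefSeq gives Foxp3 a second start, whose window holds the NFAT core letters 1 time. The windows of Ctla4, Il2ra and Tigit, not shown, hold them 1, 1 and 2 times, so they were not particular to the genes shown. The NF-kB motif was found in the window of Il2ra.

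Among the regulators, Foxp3 was measured by 1 probe set. Its log2 level was 6.08, 5.26, 7.14, 6.40 and 7.54 in lymphomas 1 to 5, against 6.17, 6.05, 6.21 and 6.02 in wild-type spleens 1 to 4. Lymphomas 3 to 5 lay above all wild-type spleens, lymphoma 2 lay below them and lymphoma 1 within their range, so the groups overlapped. The difference in means was 0.37 ± 0.39 (SE), with a 95% interval from -0.51 to 1.25 and a limma adjusted p of 0.726. It turned to -0.20 without lymphomas 3 and 5 and was 0.91 without lymphomas 1 and 2 (adjusted p 0.0873).

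Ikzf2 encodes Helios, a zinc finger protein of the Ikaros family that most Foxp3-positive cells of thymic origin carry. Its brightest probe set stood at 10.15, 9.43, 11.09, 10.25 and 10.85 in lymphomas 1 to 5, against 10.13, 10.17, 10.23 and 10.18 in wild-type spleens 1 to 4. The wild-type values lay within 0.11 log2 units of each other, whereas the lymphomas spanned 1.66, with lymphoma 3 highest and lymphoma 2 lowest. The difference was 0.17 ± 0.29 (SE; limma adjusted p 0.835), and -0.24 without lymphomas 3 and 5. A second probe set differed by 0.17 with the same highest and lowest lymphoma. The third, with means of 4.77 in lymphoma and 4.77 in wild type, was dim on every array and spanned only 0.37 log2 units among the lymphomas.

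The checkpoint receptor gene Ctla4 encodes a rival of CD28 for the ligands CD80 and CD86, and regulatory T cells carry it at all times. Its level was 8.59, 9.70, 10.02, 9.54 and 9.58 in lymphomas 1 to 5, against 8.69, 8.49, 8.69 and 8.79 in wild-type spleens 1 to 4. Lymphomas 2 to 5 all lay above the highest wild-type spleen, and lymphoma 1 lay within the wild-type range. The difference was 0.82 ± 0.24 (SE), or 1.77-fold, with a 95% interval from 0.28 to 1.37, a limma adjusted p of 0.181 and an exact two-sided permutation p of 0.0397, where the smallest p the design allows is 0.00794. Lymphoma 1 decided the call: without it the difference was 1.05 (limma adjusted p 0.0195). That array stood apart in other values too. Its 3' minus 5' Gapdh level, a sign of RNA quality, was 2.80, where the other arrays lay between 1.92 and 2.42, and its neutrophil and precursor list means lay 5.90 and 2.04 above the wild-type mean. Their part in the Ctla4 value was not tested. Among the Xist-high samples the difference was 0.61 (adjusted p 0.327). In lymphoma 2 Ctla4 was high although the Cd3 genes were low, unlike Foxp3, Icos and Il2ra in the same sample.

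PD-1, the product of Pdcd1, is an inhibitory receptor of activated T cells and is abundant on follicular helper cells. Its level was 7.65, 7.31, 8.24, 7.92 and 9.42 in lymphomas 1 to 5, against 7.39, 7.39, 7.33 and 7.44 in wild-type spleens 1 to 4. Every lymphoma but lymphoma 2 lay above all wild-type spleens, and lymphoma 5 stood more than 1 log2 unit above the next. The difference was 0.72 ± 0.35 (SE; limma adjusted p 0.405), 0.39 without lymphoma 5 and 0.24 among the Xist-high samples.

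LAG-3 binds MHC class II and also occurs on natural killer cells and plasmacytoid dendritic cells. Lag3 stood at 6.73, 6.86, 6.90, 6.75 and 8.36 in lymphomas 1 to 5, against 6.47, 6.47, 6.35 and 6.58 in wild-type spleens 1 to 4. It was the only member gene whose groups did not overlap (1 of 9, where 7.33% of all genes do not overlap, 3.29% with the lymphomas higher). Lymphomas 1 to 4 stood just above the wild-type range, and lymphoma 5 stood apart. The difference was 0.66 ± 0.31 (SE), with a limma adjusted p of 0.384 and an exact two-sided permutation p of 0.0238, and 0.35 without lymphoma 5 (limma adjusted p 0.159). The list of NK and cytotoxic genes, of which limma called 1 of 8 (Gzmk), moved with it: its mean lay 0.48 to 1.18 above the wild-type mean in the lymphomas, highest in lymphoma 5, and -0.04 to 0.07 from it in the wild-type spleens. Gzmk weighed most in that mean: it differed by 3.0, where the median difference of the 8 genes was 0.40 and the lowest -0.05. The part of NK and cytotoxic cells in the Lag3 values was not tested.

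**Figure D1:**
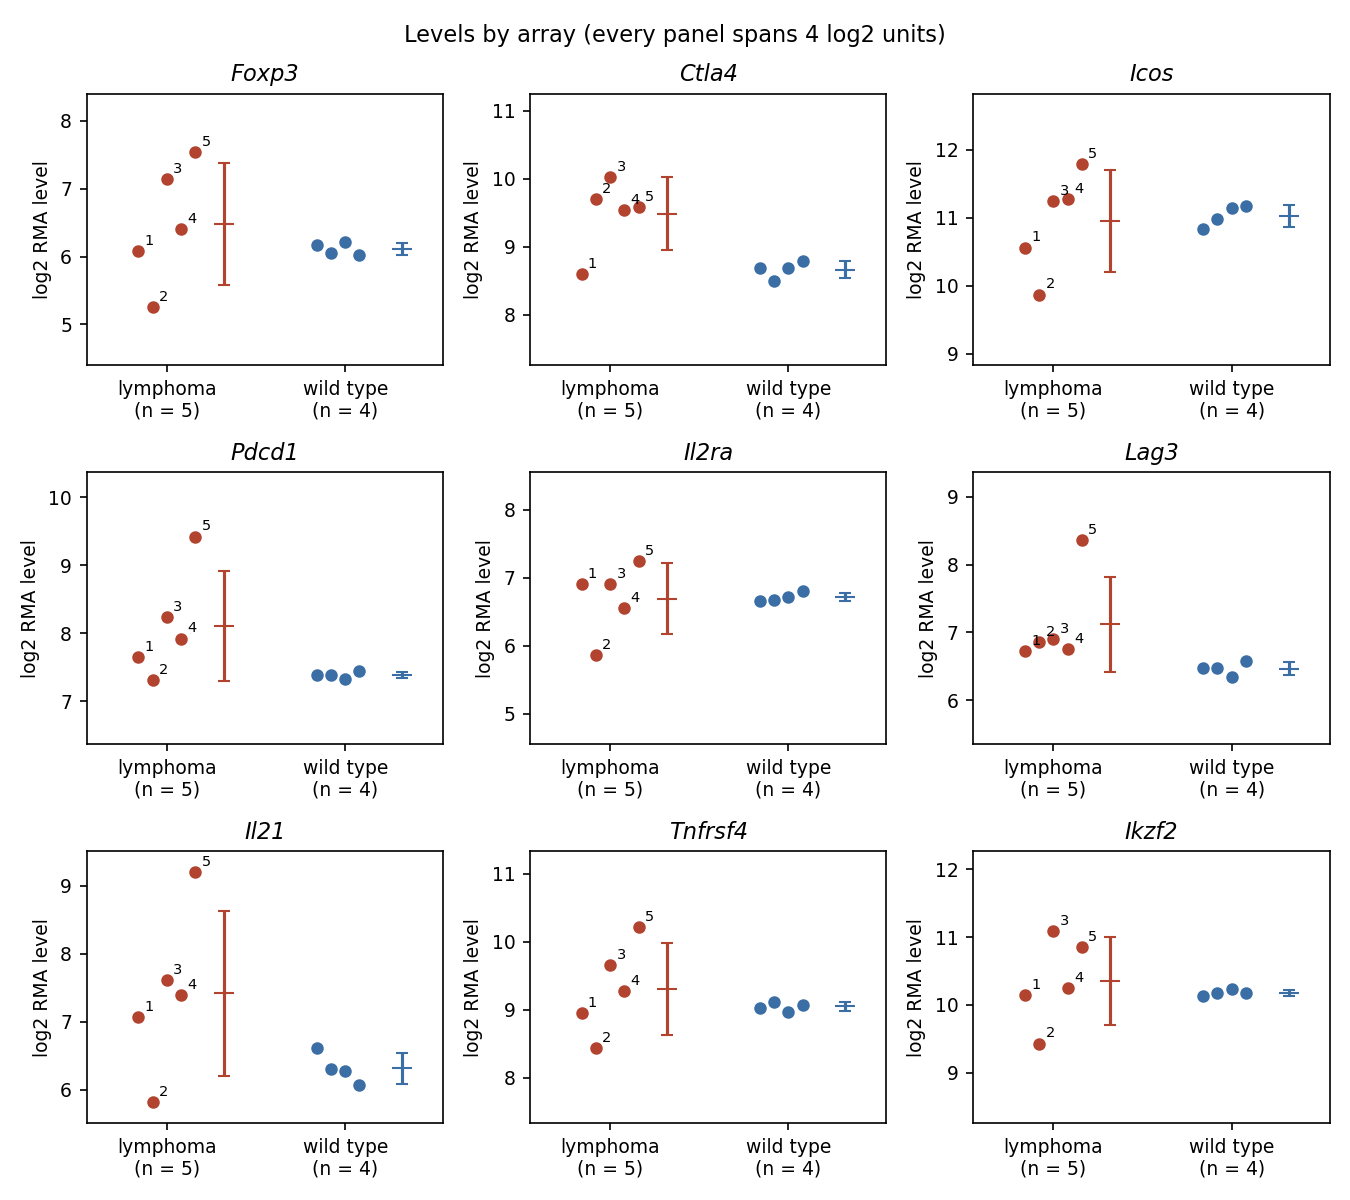
Log2 level of each of the 9 measured genes on its brightest probe set, with the 5 lymphomas (red, numbered) left of the 4 wild-type spleens (blue); the bars beside the points are mean ± SD. The wild-type points lie close together in every panel, while the lymphomas spread, for Il21 between 5.81 and 9.20.

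Il21 encodes the main cytokine of follicular helper T cells, which drives B cells towards germinal centre and plasma cell fates. On its brighter probe set the level was 7.07, 5.81, 7.61, 7.39 and 9.20 in lymphomas 1 to 5, against 6.61, 6.30, 6.27 and 6.06 in wild-type spleens 1 to 4. All lymphomas but lymphoma 2, which lay below the wild-type range, exceeded every wild-type spleen. This was the largest difference in means among the 9 genes, 1.11 ± 0.53 (SE), or 2.15-fold, with a 95% interval from -0.09 to 2.30 and a limma adjusted p of 0.397. It was 0.66 without lymphoma 5 and 0.45 among the Xist-high samples. The other Il21 probe set was dim, at means of 5.08 in lymphoma and 4.99 in wild type, and differed by 0.085.

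ICOS is a costimulatory receptor that follicular helper cells need for their upkeep. On the brightest of 3 probe sets Icos stood at 10.56, 9.87, 11.24, 11.28 and 11.79 in lymphomas 1 to 5, against 10.83, 10.98, 11.15 and 11.17 in wild-type spleens 1 to 4. Lymphomas 3 to 5 lay above and lymphomas 1 and 2 below all wild-type spleens. The group means were 10.95 ± 0.75 in lymphoma (SD, n = 5) and 11.03 ± 0.16 in wild type (SD, n = 4), a difference of -0.08 with a 95% interval from -0.83 to 0.66 (limma adjusted p 0.940), and the other probe sets differed by -0.03 and -0.05. Without lymphomas 1 and 2 the difference was 0.41 (adjusted p 0.218), and among the Xist-high samples -0.46.

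OX40, the product of Tnfrsf4, is a costimulatory receptor of the TNF receptor family that activated and regulatory T cells display. Its level was 8.95, 8.44, 9.66, 9.27 and 10.22 in lymphomas 1 to 5, against 9.03, 9.12, 8.97 and 9.07 in wild-type spleens 1 to 4. Lymphomas 3 to 5 exceeded every wild-type spleen and lymphomas 1 and 2 lay below them. The difference was 0.26 ± 0.30 (SE; limma adjusted p 0.752), 0.030 without lymphoma 5 and -0.16 among the Xist-high samples.

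Il2ra encodes CD25, the high-affinity chain of the IL-2 receptor, which regulatory T cells use to take up IL-2 and which activated lymphocytes also display. Its brighter probe set read 6.91, 5.86, 6.91, 6.55 and 7.24 in lymphomas 1 to 5, against 6.66, 6.68, 6.72 and 6.80 in wild-type spleens 1 to 4. Lymphomas 1, 3 and 5 were above and lymphomas 2 and 4 below the wild-type range. The difference was -0.02, with a 95% interval from -0.55 to 0.50 (limma adjusted p 0.978), and the other probe set differed by -0.01.

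All 9 genes spread widely among the lymphomas, as general T-cell genes did. The SD among the 5 lymphomas exceeded 2 times that among the 4 wild-type spleens for all 9 genes, where 47.1% of all genes did so, and for 12 of the 15 probe sets, where 41.9% of all probe sets did so. It was the larger SD for 14 of the 15 probe sets and for 75.2% of all probe sets. The median ratio of the lymphoma SD to the wild-type SD was 8.19 over the 9 genes and 1.89 over all genes. It was largest for Pdcd1, at 18.4, with an SD of 0.81 in lymphoma and 0.044 in wild type. Ctla4 had the smallest ratio of the 9, 4.22. All 15 measured pan T-cell genes also had a ratio over 2, between 2.49 and 20.3 with a median of 4.56, so this spread was not particular to the 9 genes.

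**Figure D2:**
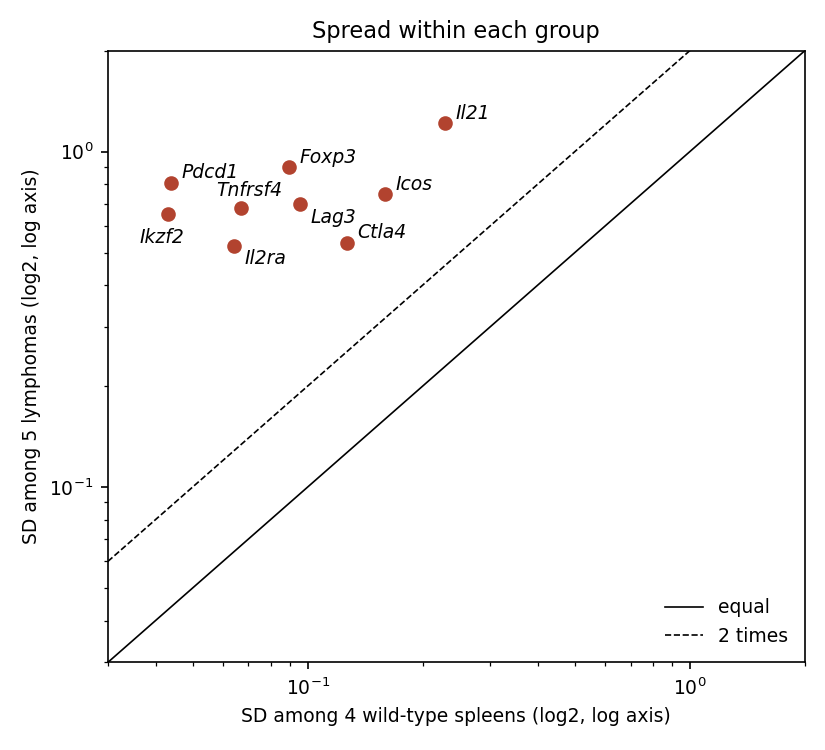
SD of the log2 level among the 5 lymphomas (vertical) against that among the 4 wild-type spleens (horizontal), both on log axes, for the 9 genes; the lines mark equal SDs and a ratio of 2. All 9 genes lie above the dashed line, from a ratio of 4.22 for Ctla4 to 18.4 for Pdcd1.

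The genes ranked the lymphomas alike. Lymphoma 5 was the highest lymphoma for 7 of the 9 genes and lymphoma 3 for the other 2 (Ctla4 and Ikzf2), whereas lymphoma 5 was highest for 18.2% of all genes and lymphoma 3 for 15.6%. Lymphoma 2 was the lowest for 7 and lymphoma 1 for 2 (Ctla4 and Lag3), against 26.4% and 27.7% of all genes. The order from high to low of lymphomas 5, 3, 4, 1 and 2 was shown by 4 genes (Foxp3, Pdcd1, Il21 and Tnfrsf4) and by 1.15% of all genes. The means of the other checkpoint, other follicular helper and other regulatory lists had the same order. In lymphomas 5, 3, 4, 1 and 2 the checkpoint list lay 0.60, 0.51, 0.30, 0.13 and 0.09 log2 units from the wild-type mean. The follicular helper list lay 0.25, 0.08, 0, -0.25 and -0.39 from it, and the regulatory list 0.43, 0.42, 0.08, 0.06 and 0.01. Lymphomas 1 and 2 were the 2 lowest for 6 of the 9 genes, and also for 13 of the 15 pan T-cell genes. This order was picked after the values were seen, and all the genes were measured on the same 5 arrays, so these counts are a description. Averaged over the 9 genes, lymphomas 1 to 5 stood 0.08, -0.38, 0.77, 0.38 and 1.37 log2 units from the wild-type mean, and the wild-type spleens between -0.03 and 0.02. All 9 genes exceeded every wild-type spleen in lymphomas 3 and 5, as did 8 of 9 in lymphoma 4, 4 in lymphoma 1 and 2 in lymphoma 2.

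**Figure D3:**
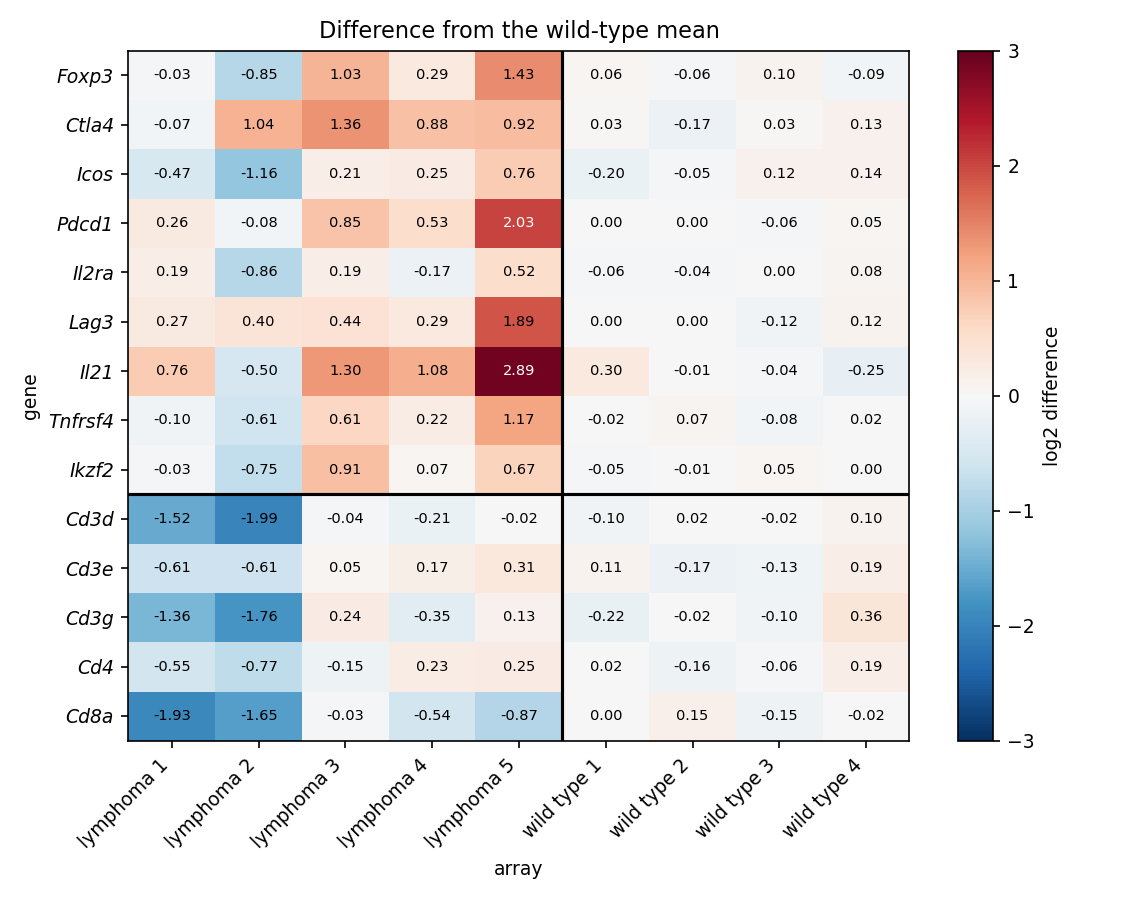
Log2 difference of each array from the wild-type mean for the 9 genes (above the line) and for Cd3d, Cd3e, Cd3g, Cd4 and Cd8a (below it), with lymphomas in the left 5 columns and wild-type spleens in the right 4. Lymphomas 3 and 5 are the 2 highest for 7 of the 9 genes (not Ctla4 and Icos), while the T-cell receptor and co-receptor genes are lowest in lymphomas 1 and 2.

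The 2 lymphomas with the highest values were those with low Xist, and the wild-type group held no such sample, so the Xist level and the high values cannot be told apart in lymphomas 3 and 5. Plasma cell genes, of which limma called 0 of 6, moved with them: the mean of that list lay 0.79 above the wild-type mean in lymphoma 3 and 1.06 in lymphoma 5, where the other lymphomas ranged from -0.25 to 0.52. Its part in the values was not tested. Among the Xist-high samples 4 of the 9 genes (Ctla4, Pdcd1, Lag3 and Il21) kept a positive difference and 5 had a negative one, and the median was -0.16. Limma then called 0 of the 15 probe sets and had 2 at an unadjusted p under 0.05, those of Ctla4 and Lag3, where 14.5% of all probe sets differed and 5.38% were higher. Of all probe sets 0.153% were called. Without lymphomas 1 and 2, the low-Cd3 samples, all 9 genes had a positive difference with a median of 0.87, and 10 of the 15 probe sets were higher at an unadjusted p under 0.05, where 7.76% of all probe sets were higher and 17.0% differed in either direction. Limma then called 1 of the 15, Ctla4 (difference 1.05, adjusted p 0.00981), where it called 2.08% of all probe sets.

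Because the Cd3 genes differed between lymphomas, each level was also set against the T-cell receptor genes, by subtracting from every array its mean of Cd3d, Cd3e and Cd3g. This adds the same amount to every probe set's difference, so the median over all genes moved to 0.51 and differences are read against that, while a test against 0 also takes in this shared shift. Set against Cd3, 7 of the 9 genes had groups that did not overlap, all higher in lymphoma, where 4.88% of all genes did so in that direction. They were Foxp3, Ctla4, Pdcd1, Lag3, Il21, Tnfrsf4 and Ikzf2. The brightest probe set of Icos and that of Il2ra still overlapped. On this scale 97.2% of all genes had a positive difference. Groups that did not overlap were not particular to the members, though the pan T-cell genes all overlapped on this scale. In the related lists Tox, Tbx21, Gzmk, Entpd1, Il10, Nt5e, Il2rb and Nectin2 were among those higher in every lymphoma. Il21r, Bcl6, Cd96 and Batf were among those that overlapped.

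Per Cd3 level, Il21 stood at -2.41, -3.37, -3.10, -3.12 and -1.58 in lymphomas 1 to 5, against -3.96, -4.27, -4.28 and -4.80 in wild-type spleens 1 to 4. Ctla4 stood at -0.88, 0.51, -0.69, -0.97 and -1.19 in lymphomas 1 to 5, against -1.88, -2.09, -1.87 and -2.06 in wild-type spleens 1 to 4. The lowest lymphoma exceeded the highest wild-type spleen for both genes. Limma, testing against 0, called 1 of the 15 probe sets, Il21 (difference 1.61, adjusted p 0.0221), where it called 1.06% of all probe sets. Beyond the shift that all probe sets share, the Il21 difference is that of the deposited values, 1.11, which was not called (limma adjusted p 0.397). The call against 0 was lost without any single wild-type spleen, without lymphoma 1 and without lymphoma 5 (limma adjusted p 0.0668 to 0.359), in the unequal-variance test (adjusted p 0.420), and with Cd4 subtracted in place of Cd3 (limma adjusted p 0.143). In this fit the spread of the Cd3 genes enters every probe set alike, and the SE was 0.43 for each of the 15.

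**Figure D4:**
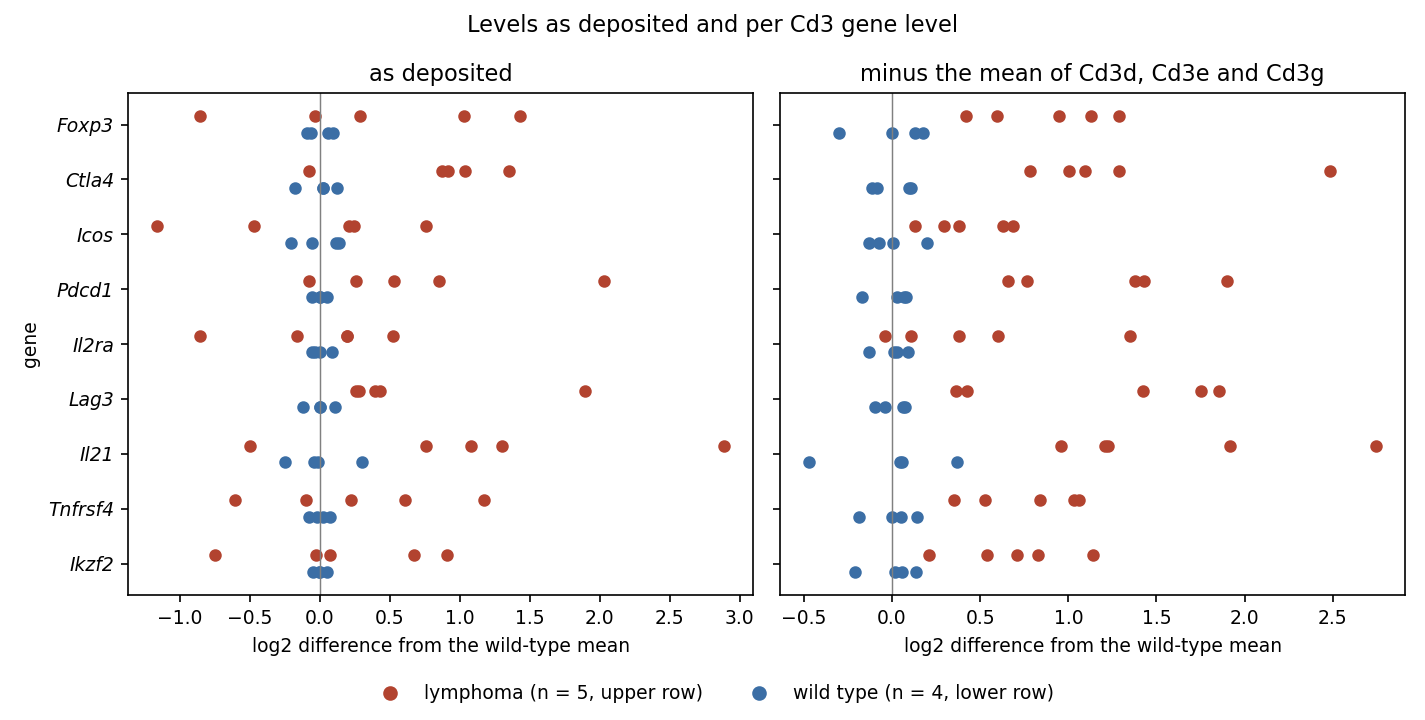
Log2 difference from the wild-type mean for each of the 9 genes, as deposited (left panel) and after subtracting each array's mean of Cd3d, Cd3e and Cd3g (right panel), with lymphomas in the upper and wild-type spleens in the lower row of each gene. The groups overlap for all genes but Lag3 on the left and for Icos and Il2ra only on the right.

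The general T-cell genes had lower means in lymphoma, and over the whole list this came mainly from lymphomas 1 and 2. The mean of their list lay -1.28 and -1.33 from the wild-type mean in those 2, and 0.08, -0.13 and -0.11 in lymphomas 3 to 5. Of 15 measured pan T-cell genes limma called 0, where 0.605% of all genes were called. At an unadjusted p under 0.05, 3 were lower, as were 8.09% of all genes. All 15 differences were negative, with a median of -0.42. The largest were those of the CD8 chain genes, Cd8b1 at -1.69 (limma adjusted p 0.159) and Cd8a at -1.0 (0.244). These CD8 genes were below all wild-type spleens in lymphomas 4 and 5 too. Cd8b1 stood at 6.47, 7.52, 9.34, 7.56 and 7.44 in lymphomas 1 to 5, against 9.09 to 9.80 in the wild-type spleens. Cd8a stood at 8.30, 8.58, 10.20, 9.69 and 9.36, against 10.08 to 10.38. Cd4 differed by -0.20, Cd3d by -0.75, Cd3e by -0.14 and Cd3g by -0.62. Cd4 stood at 9.12, 8.90, 9.52, 9.90 and 9.92 in lymphomas 1 to 5, against 9.69, 9.51, 9.61 and 9.86 in wild-type spleens 1 to 4.

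Further genes of the same cell states were split. Of 17 other regulatory T-cell genes 0 were called, 9 differences were positive and 8 negative, and the median was 0.013. The largest were Il10, the suppressive cytokine that macrophages and B cells make too (1.68, limma adjusted p 0.0740, with groups that did not overlap), and Nt5e, the ectoenzyme CD73 (1.05, 0.144). Of 15 other follicular helper genes 0 were called, 7 differences were positive and 8 negative, with a median of -0.0092. The largest were Il21r, the receptor of IL-21 (-0.67, 0.0848), and Bcl6, the repressor that programmes both follicular helper and germinal centre B cells (-0.65, 0.106), both lower in every lymphoma than in every wild-type spleen. B cells carry both genes as well, and the B-cell list mean lay 0.30 to 1.41 below the wild-type mean in the lymphomas. Limma called 0 of the 7 genes of that list, whose differences ran from -1.77 to -0.07. The part of B cells in the Il21r and Bcl6 values was not tested.

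Of 16 other checkpoint and exhaustion genes 2 rose and 14 did not pass, where 0.346% of all genes rose. Gzmk, which encodes the cytotoxic granule protease granzyme K, rose 8.0-fold (limma adjusted p 0.0107) and Entpd1, the gene of the ectonucleotidase CD39, rose 1.82-fold (0.0255). Gzmk was at 10.34, 10.27, 9.60, 9.76 and 10.89 in lymphomas 1 to 5, against 7.81, 7.24, 6.91 and 6.73 in wild-type spleens 1 to 4. Entpd1 was at 8.80, 9.08, 8.97, 9.27 and 9.35 in lymphomas 1 to 5, against 8.40, 8.20, 8.20 and 8.12 in wild-type spleens 1 to 4. Without wild-type spleen 2 or wild-type spleen 3 neither was called, and the call of Entpd1 was lost without lymphoma 5, wild-type spleen 1 or wild-type spleen 4, and without lymphomas 3 and 5 together (limma adjusted p 0.0675). The unequal-variance test called neither (adjusted p 0.131 for Gzmk and 0.171 for Entpd1). Macrophages and B cells also carry CD39, and the macrophage list, of which 5 of 8 genes rose, was higher in lymphoma too. Its mean lay 1.04 to 1.60 above the wild-type mean in the lymphomas and -0.16 to 0.12 from it in the wild-type spleens. Among the lymphomas the list and Entpd1 did not rank alike: lymphoma 1 had the highest macrophage mean (1.60) and the lowest Entpd1 level (8.80). The part of macrophages in these values was not tested.

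The partners of the receptors were measured by 15 genes, and limma called 0 of them. Their median difference was -0.09. At an unadjusted p under 0.05, 2 were higher, as were 6.79% of all genes, and 1 was lower. Tnfsf4, the ligand of OX40, stood at 7.01, 9.03, 6.86, 6.73 and 6.70 in lymphomas 1 to 5, against 6.55, 6.37, 6.19 and 5.87 in wild-type spleens 1 to 4. All lymphomas exceeded all wild-type spleens, and lymphoma 2 stood 2 log2 units above the next. The difference was 1.02 (limma adjusted p 0.347). Lymphoma 2 was also the highest lymphoma for the CTLA-4 ligand genes Cd80 (9.42, others 6.97 to 8.10) and Cd86 (10.71, others 10.15 to 10.46), and for the PD-1 ligand genes Pdcd1lg2 (9.61, others 7.58 to 8.28) and Cd274 (10.41, others 9.67 to 10.13). These 4 ligand genes differed by 0.67, 0.10, 0.25 and -0.20 in means, with limma adjusted p-values of 0.534 to 0.791.

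Icosl, the ligand of ICOS on B cells and other presenting cells, differed by -0.47 (limma adjusted p 0.383) and Cd28, the activating counterpart of CTLA-4, by -0.28 (0.752). Il2, the cytokine that CD25 binds, was dim on all arrays, between 4.82 and 4.95 in lymphoma and 4.84 and 5.06 in wild type, and its partner chain gene Il2rb differed by 0.37 (0.480). Of the ligands of TIGIT, Nectin2 differed by 0.39 (0.182) and Pvr by -0.16 (0.623), and of the receptors that share them Cd96 differed by -0.43 (0.601) and Cd226, dim on all arrays, by -0.21 (0.483). Fgl1, a ligand of LAG-3 known as a liver product, was at 9.19 in lymphoma 1, between 5.19 and 5.77 in the other lymphomas and between 5.49 and 6.03 in the wild-type spleens (limma adjusted p 0.778).

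**Figure D5:**
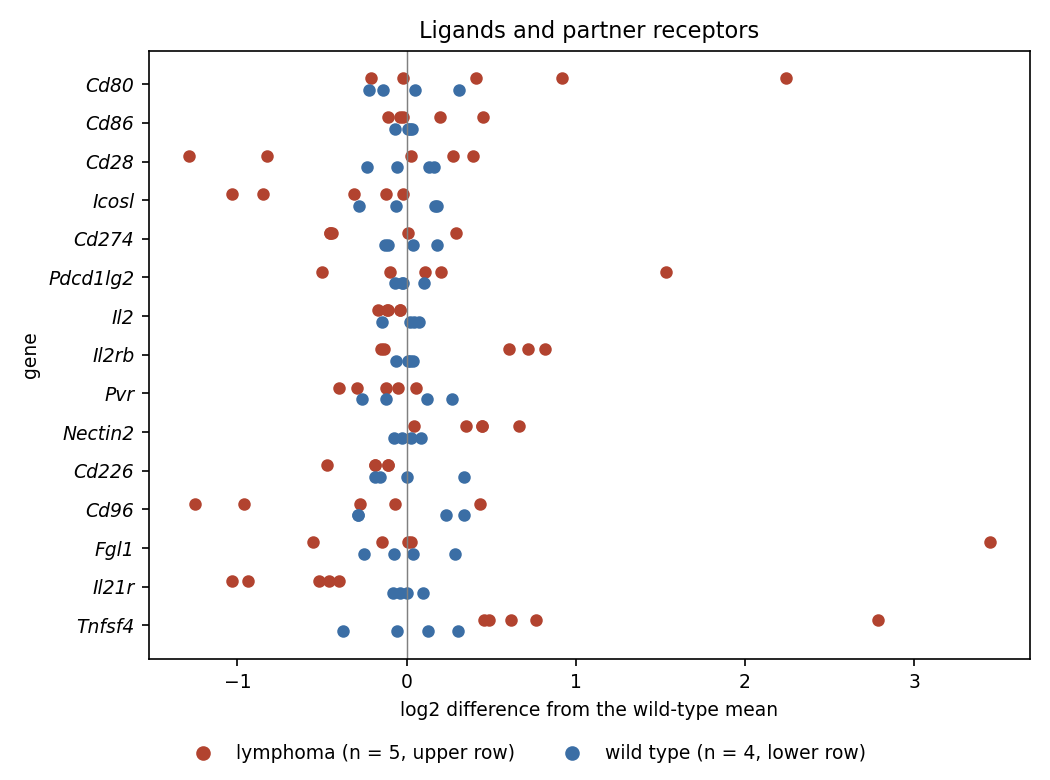
Log2 difference from the wild-type mean for 15 ligand and partner receptor genes, with the 5 lymphomas in the upper and the 4 wild-type spleens in the lower row of each gene. Single lymphomas stand apart for Fgl1 (lymphoma 1) and for Tnfsf4, Cd80 and Pdcd1lg2 (lymphoma 2), and Il21r is lower in all lymphomas.

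For the 8 genes that spanned at least 1.5 log2 units over the 9 arrays, the genes with the most similar profile were found by the root mean square difference between profiles, each centred on its own mean. Foxp3 was closest to Tbx21, the T-bet gene of type 1 T cells and NK cells (0.15 log2 units), and to Tox, a nuclear factor of exhausted and developing T cells (0.21). Tox was also among the nearest to Tnfrsf4 (0.17), after Sdcbp2 (0.15). Icos was closest to Plcg1 (0.15) and Cd28 (0.16), both of T-cell receptor signalling, and Ikzf2 to Nrp1, a surface protein of regulatory T cells and vessels (0.16), and Klk1b27 (0.16). Ctla4 was closest to Prkcz (0.16) and Rgs1 (0.26), Pdcd1 to Frmpd2 (0.18) and Socs3 (0.24), Lag3 to Cdk5rap1 (0.23) and Batf (0.26), and Il21, the least matched, to Nrn1 (0.41) and Serpina3n (0.42). The likeness covers 9 arrays and was not tested.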

How the data were processed

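RNA of frozen spleen tissue was hybridised to 1-colour Affymetrix mouse arrays, 1 per sample, as the labels' protocols describe. Values were deposited on the log2 scale as RMA output, per the submitters' processing notes; no RMA version or setting is given there. RMA compresses differences near the background. The array medians spanned 6.88 to 6.97, and nothing further was normalized. Precision is limited by how few arrays there are.

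Of 45101 probe sets, 64 controls were dropped. The platform annotation gave 34958 probe sets 1 symbol, 932 several and 9211 none; only the first were named, and the probe set with the highest mean stood for a gene. Lymphoma minus wild type was tested with limma 3.58.1 in R 4.3.3 (lmFit, eBayes, two-sided, Benjamini-Hochberg over 45037 probe sets, threshold 0.05), without covariates or a filter, and the fit was tested on simulated data. Exact permutation tests used all divisions of the 9 arrays.

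The members and lists were chosen with earlier results of these data known. The lists measured 15 of 18 pan T-cell, 17 of 20 other regulatory, 15 of 16 other follicular helper, 16 of 17 other checkpoint and 15 of 16 partner genes; the rest were not analysed here. The text names all members and partner genes, up to 4 called genes of each other list or else the 2 with the largest difference, the 2 genes most like each member that spans at least 1.5 log2 units, and Cd3d, Cd3e, Cd3g, Cd4, Cd8a and Xist. Alternatives changed the normalization, a filter on dim probe sets, the variance model, array weights, the test, the probe sets, the replicate block, covariates and the arrays included. Figures used matplotlib 3.10.9 (Python 3.11.15).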

Additional observations from a re-analysis of the deposited data

Results flagged for a closer look

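Among 110 groups of arrays checked, 5 had a sample far from the others by Dixon's ratio (its gap to the nearest over the whole range), where chance flags about 1 in 20. Lag3 in lymphoma 5 was at 8.36, with the next lymphoma at 6.90 (ratio 0.893). Tnfsf4 in lymphoma 2 was at 9.03, with the next at 7.01 (0.864). Fgl1 in lymphoma 1 was at 9.19, with the next at 5.77 (0.855). Cd226 in lymphoma 2 was at 4.23, below the next at 4.51 (0.779), both dim. Prkcz, whose profile was closest to that of Ctla4, was at 6.97 in lymphoma 1, below the next at 7.98 (0.774).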

How the results depend on the processing

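Of the 15 member probe sets, 1 was called with array weights, 1 with the Cd3 mean subtracted and 1 without lymphomas 1 and 2, and 0 to 1 with single arrays left out (1 without lymphoma 1). At an unadjusted p under 0.05 there were 5 with array weights, 5 with the Cd3 mean and 4 with the Cd4 level subtracted. The erythroid score as a covariate gave 4. There were 10 without lymphomas 1 and 2, 2 without lymphomas 3 and 5, and 1 to 4 with single arrays left out (4 without lymphoma 2). Of all probe sets 13.9% were under that threshold in the main fit and 7.15% with the Cd3 mean subtracted. The shares were 17.0% without lymphomas 1 and 2 and 14.5% without lymphomas 3 and 5. Those of the other settings are not given here. Over all probe sets the 219 calls became 821 with array weights, 0 in the unequal-variance test, 130 with 1 probe set a gene, 476 with Cd3 and 144 with Cd4 subtracted, 111 with Xist, 809 with the Gapdh ratio and 138 with the erythroid score as a covariate, 935 without lymphomas 1 and 2, and 69 without lymphomas 3 and 5. Single arrays left out gave 0 to 530, with 0 without wild-type spleen 2 or 3, 14 without wild-type spleen 4, 18 without wild-type spleen 1, 48 without lymphoma 5 and 530 without lymphoma 2. Per Cd3 level, the 1 member call became 3 with array weights and 0 in the unequal-variance test. As covariates, Xist gave 8 and the Gapdh ratio 3. With Xist, limma's adjusted p for Tnfrsf4 was 0.0472 and its unadjusted p 0.0370. Values that close arise only when most of all probe sets are called, so the 8 say nothing particular about the members. The member count became 4 without lymphomas 1 and 2, where 1.08% of all probe sets were called. Without lymphomas 3 and 5 it also became 4, but 24.9% of all probe sets were then called. With single arrays left out it was 0 to 1, and the shares of the remaining settings are not given here. The 2 calls in the companion lists became 7, 0, 4, 6 and 4 with array weights, the unequal-variance test, Cd3 subtracted, the Gapdh ratio and the erythroid score, 7 without lymphomas 1 and 2, 1 without lymphomas 3 and 5, and 0 to 4 with single arrays left out, 0 without wild-type spleen 2 or 3. The median over the member genes ranged from 0.11 to 0.68 with single arrays left out, and was -0.18 with Xist as a covariate and -0.16 without lymphomas 3 and 5.

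Signs turned for 5 genes, none of them called. Foxp3 was -0.22 with Xist as a covariate and -0.20 without lymphomas 3 and 5, Tnfrsf4 -0.18 and -0.16, and Ikzf2 -0.24 and -0.24, with -0.0094 for Ikzf2 without lymphoma 3. Icos was 0.19 with array weights, 0.42 with Cd3 and 0.12 with Cd4 subtracted, 0.35 with the erythroid score, 0.41 without lymphomas 1 and 2, 0.015 without lymphoma 1 and 0.19 without lymphoma 2, within a range of -0.29 to 0.19 with single arrays left out. Il2ra was 0.093, 0.48, 0.17, 0.10 and 0.18 in the first 5 of these settings, 0.18 without lymphoma 2, 0.012 without lymphoma 4 and 0.0045 without wild-type spleen 4. Subtracting Cd3 or Cd4 adds the same amount to every probe set's difference, so the turns of Icos and Il2ra there reflect that shared shift. The cause in the other settings was not tested.

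The replicate numbers did not pair the samples: deviations of same-numbered samples correlated at 0.099, -0.19, 0.15 and -0.038. Number 5 belongs to lymphoma 5 alone, so the block also takes that array out of the difference, and the 2 changes cannot be told apart: the Foxp3 difference was 0.11 with the block and 0.11 without lymphoma 5. With the number as a block, 2 member probe sets were at an unadjusted p under 0.05, 5 of all probe sets, 2 members per Cd3 level and 1 companion gene (Gzmk, not Entpd1) were called, where leaving out lymphoma 5 alone gave 48 of all probe sets.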
